A study of Mus musculus with 2 samples.

Results

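In primary chondrocytes from mouse rib cartilage, 1754 H3K27me3 peaks of moderate length lay upstream of the deposited gene records joined to them and touched none of these records. By the RefSeq gene table, 446 of the 1754 (25.4%) overlapped some gene. They were selected on measured values, namely a width under 10000 bp and a position in which every gene joined to the peak began beyond it. The deposited annotation joined a peak to the genes within 5 kb. The whole list held 19359 peaks, of which 18689 were shorter than 10 kb. Of these shorter peaks, 921 covered a gene start, 5470 lay inside genes, 826 lay downstream only, 1734 combined several positions and 7984 had no gene within reach. Width and position chose the members, and pileup, fold enrichment and q-value came from the same contrast, so all of these values are descriptions with no test.

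The cells came from newborn wild-type CD1 mice and were cultured overnight after collagenase digestion, with no other treatment. One library of chromatin precipitated with an antibody to trimethylated lysine 27 of histone H3 (ChIP, 17237574 filtered tags) was compared with 1 library of unprecipitated chromatin (input, 17004082 filtered tags). The libraries were grouped by their titles, and their antibody tags say the opposite, since the input carries the tag H3K27me3. The peaks, which are enriched in the library titled as ChIP, covered or lay near 30 of 39 Hox genes, textbook targets of the mark, and 32593 bp at the Wnt ligand gene Wnt10a. There were no replicates, so no value below has a spread between samples, and in bulk chromatin a mark on a few cells and a weak mark on all of them cannot be told apart. Of 24 chondrocyte genes, Ihh and Runx3 carried a peak, while Col2a1, Acan and Sox9 had none.

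H3K27me3 is written by Polycomb repressive complex 2 and is read by the CBX proteins of Polycomb repressive complex 1. It is best known from the silent promoters of developmental regulators, where it often spreads over the start site and far into the flanks. Sequence upstream of a start holds the proximal promoter and, farther out, enhancers, and alternative starts of the same gene can lie there too.

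The 4 smallest distances between a peak and the start of a gene with a symbol and a reference window belonged to Il12rb2, Olfr463, Upk3a and Rtp2. The 250 bases before their start sites show the promoters on which these peaks ended. They are given from RefSeq on GRCm38.p6, 5′ to 3′ along the gene, with every CG dinucleotide in capitals, since CG-rich promoters are a known substrate of Polycomb. The Lhx2 and Wnt16 promoters were added after their values were seen, because their starts lay in the narrow stretch between peaks that is described further on.
Il12rb2, chr6:67376189-67376438, minus strand: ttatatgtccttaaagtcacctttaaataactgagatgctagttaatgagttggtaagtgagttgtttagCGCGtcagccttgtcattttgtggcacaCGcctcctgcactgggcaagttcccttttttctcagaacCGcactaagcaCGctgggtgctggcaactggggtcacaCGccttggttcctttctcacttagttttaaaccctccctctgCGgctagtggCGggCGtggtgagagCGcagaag
Olfr463, chr11:87893923-87894172, minus strand: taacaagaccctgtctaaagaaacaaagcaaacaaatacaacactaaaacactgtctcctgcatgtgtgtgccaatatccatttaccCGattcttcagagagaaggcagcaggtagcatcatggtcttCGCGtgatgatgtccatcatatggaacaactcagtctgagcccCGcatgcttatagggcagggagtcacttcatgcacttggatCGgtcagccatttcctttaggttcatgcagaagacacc
Upk3a, chr15:85016891-85017140, plus strand: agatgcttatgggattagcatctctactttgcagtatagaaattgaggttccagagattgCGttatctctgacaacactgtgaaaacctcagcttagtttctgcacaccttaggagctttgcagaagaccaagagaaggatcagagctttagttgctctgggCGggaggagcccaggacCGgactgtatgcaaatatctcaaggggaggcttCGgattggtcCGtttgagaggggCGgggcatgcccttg
Rtp2, chr16:23930795-23931044, minus strand: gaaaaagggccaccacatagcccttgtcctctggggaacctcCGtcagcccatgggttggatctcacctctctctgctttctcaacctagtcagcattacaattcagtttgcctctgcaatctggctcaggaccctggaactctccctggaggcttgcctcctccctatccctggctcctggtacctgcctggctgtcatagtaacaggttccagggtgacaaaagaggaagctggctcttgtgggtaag
Wnt16, chr6:22287977-22288226, plus strand: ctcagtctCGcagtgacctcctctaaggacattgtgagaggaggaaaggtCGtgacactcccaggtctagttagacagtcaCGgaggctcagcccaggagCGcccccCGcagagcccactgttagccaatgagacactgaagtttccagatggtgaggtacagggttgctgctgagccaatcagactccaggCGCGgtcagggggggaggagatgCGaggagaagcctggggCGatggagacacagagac
Lhx2, chr2:38339031-38339280, plus strand: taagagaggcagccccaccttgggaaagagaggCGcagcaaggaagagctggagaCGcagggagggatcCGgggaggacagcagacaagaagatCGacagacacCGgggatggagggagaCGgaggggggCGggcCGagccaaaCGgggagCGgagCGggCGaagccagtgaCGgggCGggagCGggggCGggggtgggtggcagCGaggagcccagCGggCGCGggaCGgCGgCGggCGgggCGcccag

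The peaks of Il12rb2, Olfr463, Upk3a and Rtp2 covered 248, 238, 239 and 238 of the 250 bases shown, and the peak of Wnt16 covered 214. The Lhx2 peak ended farther out and covered 0 of them. The Lhx2 window held 25 CG dinucleotides and 72.8% G and C, whereas the Rtp2 window held 1 CG dinucleotide. Over all 32851 reference windows the median was 6 CG dinucleotides in these 250 bases (quartiles 2 and 16), and 92.1% of the windows held at least 1. The 4 closest peaks therefore ended on promoters between 1 and 10 CG dinucleotides, on both sides of the median. A comparison of promoter composition over all genes of these peaks was void, because a window was at hand for 76.5% of the 1325 protein-coding genes, under the limit of 80%.

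Peaks upstream of genes were more frequent close to the start than far from it. The distance to the nearest gene start had a median of 2020 bp (quartiles 893 and 3385 bp, range 3 to 4982 bp, n = 1754 peaks). Within 1 kb of a start lay 494 peaks, or 28.2% (26.1 to 30.3%, 95% Wilson interval, which here and below covers counting error only). In bins of 500 bp the share was 13.7% nearest to the start, 14.4% in the next bin and 7.07% in the farthest. Peaks downstream of genes only, measured to the gene end, had a flatter profile, with a median of 2390 bp and 23.7% within 1 kb (21.0 to 26.7%, n = 826). The 2 intervals for the share within 1 kb overlapped slightly. The deposited distance equalled the gap between peak edge and gene start in each of the 1882 peak-gene pairs.

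**Figure D1:**
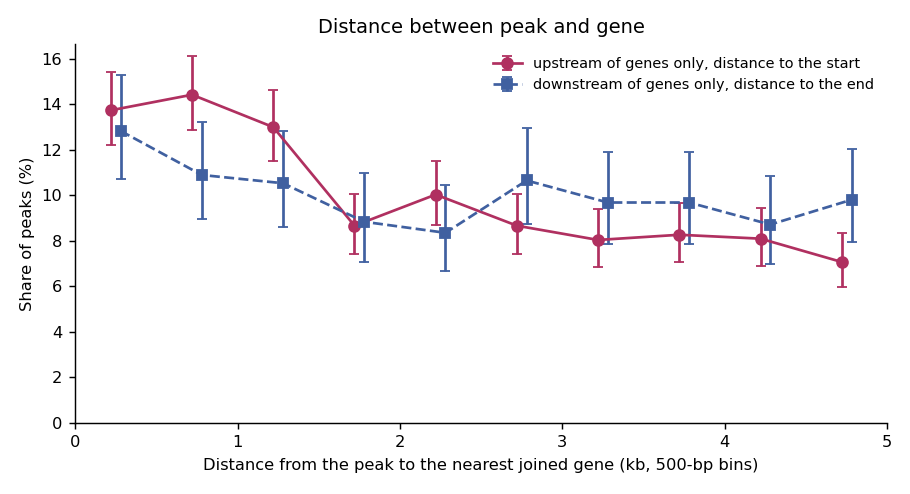
Share of peaks (%) against distance to the nearest joined gene (kb, bins of 500 bp), for 1754 peaks upstream of genes only (circles, distance to the start) and 826 peaks downstream of genes only (squares, distance to the end). Bars are 95% Wilson intervals. The upstream series falls from 13.7% to 7.07%, and the downstream series runs from 12.8% to 9.81%.

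The peaks nearest to a start were of modest strength. Il12rb2 encodes a subunit of the interleukin-12 receptor, and its peak of 412 bp ended 3 bp before the start with a pileup of 9.86, a fold enrichment of 2.96 over input and a mean q-value of 0.0988. Pileup is the ChIP coverage averaged across the peak, and fold enrichment sets pileup against the input background. Upk3a, a uroplakin of the bladder lining, had a peak of 538 bp at 13 bp, with a fold of 2.99. Olfr463, an odorant receptor gene, had the wider peak of 3763 bp at 13 bp, with a fold of 3.15. Rtp2, which helps odorant receptors to reach the cell surface, had 611 bp at 20 bp and a fold of 2.999. Itga11, the alpha subunit of a collagen-binding integrin, had 446 bp at 22 bp and a fold of 2.96. Among these 5 peaks only that of Olfr463 had a mean q-value under 0.05, at 0.0403.

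Close peaks as a whole were wider than distant ones. The 494 peaks within 1 kb had a median width of 1718 bp and reached a mean q-value of at most 0.05 in 69.0% (64.8 to 72.9%). The 266 peaks at 4 to 5 kb had a median width of 1254.5 bp and reached it in 56.8% (50.8 to 62.6%). Across the 1754 peaks, which share both libraries, Spearman's rho of the gap was −0.15 with width and −0.11 with fold enrichment. Fold enrichment had a rho of 0.32 with width and 0.78 with pileup, from which it is computed.

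Peaks upstream of genes were short and low, like the list they came from. Their width had a median of 1316 bp (quartiles 738 and 2591 bp, range 294 to 9873 bp), against 1230 bp over all shorter peaks. Their pileup had a median of 11.1 (quartiles 10.5 and 11.9) and their fold enrichment a median of 3.17 (quartiles 3.04 and 3.34), against 10.99 and 3.15. A mean q-value of at most 0.05 was reached by 1117 of 1754 peaks, or 63.7% (61.4 to 65.9%), beside 60.8% of all 19359 peaks. A fold enrichment of at least 3.5 was reached by 178 peaks, or 10.1%, beside 9.56% of all peaks. Both shares were near the background of the list.

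Among the 6 position classes the upstream peaks ranked below those over starts and those of several positions, and above the others. Shorter peaks that covered a start had a median width of 3795 bp and a median fold of 3.28, and 81.4% reached a mean q-value of 0.05. Peaks that combined several positions also stood above the upstream peaks, with 67.1% and a median fold of 3.20. That share was 58.3% for peaks inside genes, 55.7% for downstream peaks and 55.3% for peaks with no gene. Widths differed between the classes, and at matched width the fold enrichments were closer. From 4 to 10 kb the median fold was 3.38 for the 202 upstream peaks and 3.36 for the 447 peaks over starts. From 2 to 4 kb it was 3.23 for both classes. From 1 to 2 kb it was 3.12 for 503 upstream peaks and 3.15 for 156 peaks over starts, and under 1 kb 3.10 for 635 and 3.06 for 67.

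**Figure D2:**
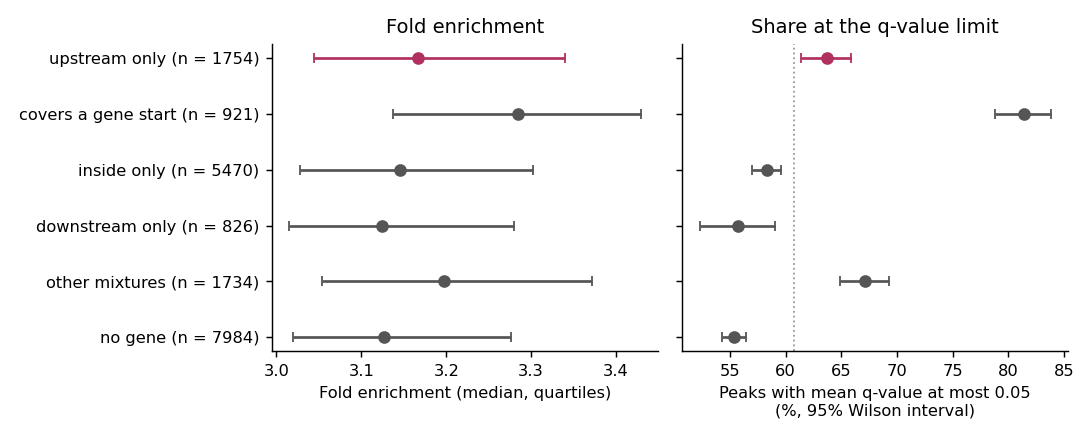
Fold enrichment over input (left, median and quartiles) and share of peaks whose mean q-value was 0.05 or lower (right, %, 95% Wilson interval) for the 6 position classes of shorter peaks. The dotted line is the share over all 19359 peaks, 60.8%. Upstream peaks (63.7%) lie below peaks over gene starts (81.4%) and above peaks with no gene (55.3%).

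Among peaks with a gene symbol, the widest lay before genes of several kinds, and 1 member without a symbol was wider than any of them. Trnp1, a nuclear protein of neural progenitors, had 9834 bp of mark ending 565 bp before its start (fold 3.31). Pou3f2, a POU-domain factor of neurons, had 9651 bp ending at 1046 bp (fold 3.52). Ttc9 had 9387 bp (fold 3.51). Bahd1, a chromatin protein whose BAH domain reads H3K27me3, had 9283 bp ending at 787 bp (fold 3.38), and Zranb2, a splicing regulator, had 9095 bp ending at 1076 bp (fold 3.42). Bahd1 and Zranb2 carried no other peak, whereas Trnp1, Pou3f2 and Ttc9 also had peaks inside the gene. Just above the length limit, and not counted here, lay the upstream peaks of Nr1i3 (10030 bp), Ubash3b (10425 bp) and Cacna2d3 (10840 bp), and 31 upstream-only peaks were that long or longer.

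The highest pileup was 73.6 before Tmem125, with a fold of 2.05 over an input background of 35.3. Cwc22, a splicing factor gene, followed with a pileup of 32.1, a fold of 2.09 and an input background of 14.9. Slc25a30 (16.8), Gm21671 (16.8) and Cdk6, a cell-cycle kinase (16.7), came next. The genome-wide input level was 2.67, and 28.7% of the upstream peaks stood on it, beside 31.1% of all peaks. The highest fold was 4.43 at a peak of 1245 bp, 3617 bp before the deposited start of the zinc finger gene Zfp109 and inside the longer RefSeq span of that gene. Next came Cabp7, a calcium-binding protein (4.41), Cbx8, a reader of H3K27me3 (4.12), Lrfn2, a synaptic adhesion protein (4.06), and Slc25a30, a mitochondrial carrier (4.04). Slc25a30 was on both lists, and neither it nor Zfp109 had any other peak.

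The 1754 peaks were joined to 1697 gene records, of which 1393 had a symbol. A further peak outside this group was joined to 960 of the 1697 genes, or 56.6% (54.2 to 58.9%), and the other 737 (43.4%) carried only upstream peaks of this kind. The further peak lay inside the gene for 654 genes (38.5%), downstream or over the end for 371 (21.9%), and over the start for 168 (9.90%). A peak of 10 kb or more was joined to 74 genes (4.36%). For comparison, the share of genes with a peak of another class was 66.9% for peaks inside genes, 65.5% for downstream peaks and 63.5% for peaks over starts, so genes of upstream peaks had the lowest share of these classes. A gene can count under several positions.

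**Figure D3:**
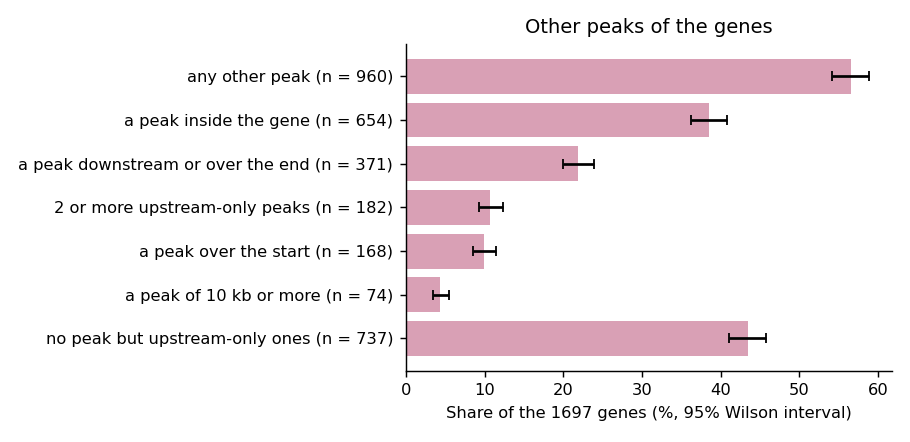
Share (%) of the 1697 genes with an upstream-only shorter peak that also carried other peaks, by position, with 95% Wilson intervals. Peaks inside the gene (38.5%) are more frequent than peaks over the start (9.90%), and 43.4% of the genes carry no other kind of peak.

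The gap differed with the other peaks of the gene, in part by construction. The 162 peaks whose nearest gene had a covered start lay at a median gap of 3234.5 bp, and no such peak could lie closer than the smallest spacing between peaks of the list, 1177 bp. The 849 peaks whose gene had another peak but an uncovered start lay at 1192 bp, and the 743 peaks whose gene had none at 2411 bp. A mean q-value of at most 0.05 was reached by 67.9%, 67.6% and 58.3% of these groups, and by 79.7% of the 79 peaks whose gene had a peak of 10 kb or more.

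Leaving out the 7 symbols that a spreadsheet had turned into dates, 1237 genes with a symbol had 1 such peak and 148 had 2. Shtn1 alone had 3. It encodes the axon protein shootin 1 and had 10 further peaks. Its upstream peaks lay at 437, 2923 and 4578 bp with folds of 3.17, 3.49 and 3.23. Mixl1, a homeobox factor of mesendoderm, had peaks at 468 and 2332 bp (fold 3.24 and 3.12) and 1 further peak inside. Nucks1, Ddx18 and Susd4 each had 2 upstream peaks and no other, with folds between 3.02 and 3.34.

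A frequent arrangement was an uncovered start between 2 peaks. For 643 of the 1882 pairs (34.2%, 32.1 to 36.3%), the start was free and the next peak lay over the gene body. In 489 of these the free stretch measured at most 5 kb, with a median of 2010 bp (quartiles 1492 and 2970 bp). The upstream peak of these 489 genes ended at a median of 886 bp before the start, and the body peak began at a median of 1071 bp after it. Both peaks had similar strength, with a median fold of 3.23 upstream and 3.28 in the body, and the upstream peak was the stronger in 43.1%. Both reached a mean q-value of 0.05 in 59.1%.

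The narrowest free stretches were set by the peak list itself. No pair of neighbouring peaks anywhere in the list lay closer than 1177 bp, so a start in a narrower gap could not be seen as free, and its gene counts among those with a covered start. Free stretches under 1500 bp were found at 124 of the 489 genes, and 2363 of all 19339 spacings between neighbouring peaks were that short. The 489 were limited to 5 kb, whereas the spacings had no limit and a median of 6756 bp, so these shares are not comparable. At 1178 bp the narrowest belonged to Pdgfb, a growth factor of mesenchymal cells, and to Wnt16, whose upstream peak of 1415 bp ended 38 bp before the start. These are deposited starts, and by the RefSeq gene table the upstream peak of Pdgfb lay inside that gene and the peak of Wnt16 covered its 5′ end. The same table placed the upstream peak over its own gene in 84 of 458 such pairs with a matched gene (18.3%, 15.1 to 22.1%). The Wnt16 promoter shown above lay mostly under that peak. At Lhx2, a LIM homeobox factor, 7969 bp of mark ended 554 bp before the start, mark returned 647 bp inside for 10652 bp, and the window of 25 CG dinucleotides lay in the free stretch of 1201 bp.

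**Figure D4:**
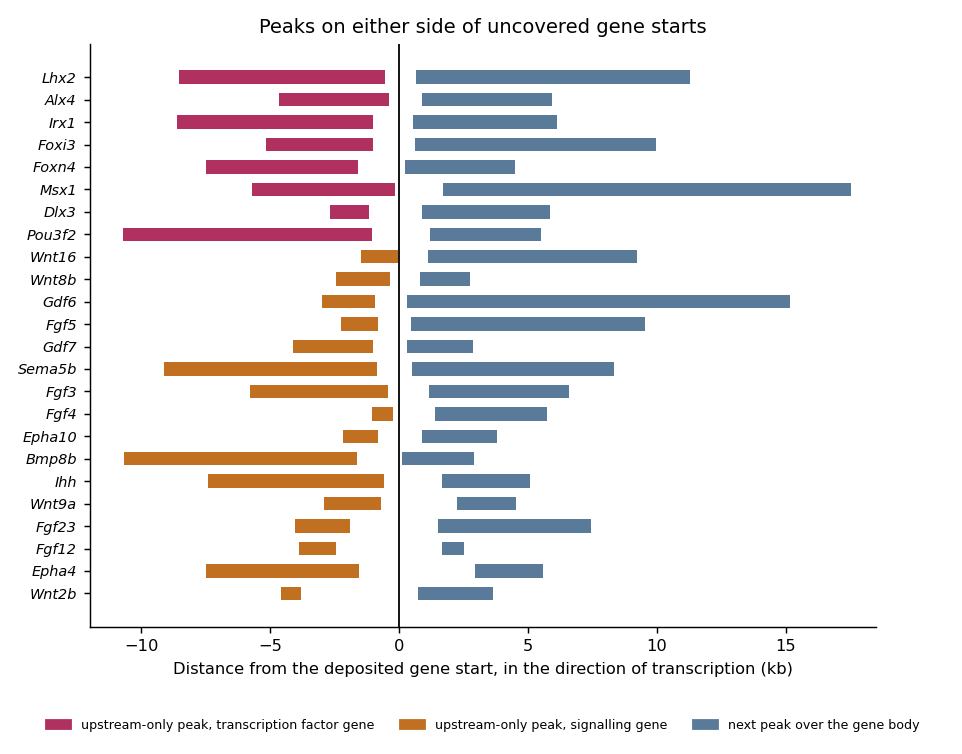
Peaks on either side of the start (0, vertical line) at 8 transcription factor genes named in the text and the 16 signalling genes whose start was free between an upstream peak and the next peak over the gene body, within 5 kb. The horizontal axis is the distance from the deposited gene start along transcription (kb). Each bar spans 1 peak, and free stretches run from 1178 bp at Wnt16 to 4553 bp at Wnt2b.

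The families of transcription factor genes were marked at 67.3% of their genes by any peak of the list, against 20.7% of all 21900 protein-coding genes. Of 245 genes in families such as Fox, Lhx, Dlx and Pou, 22 (8.98%, 6.005 to 13.2%) had a shorter upstream-only peak, beside 6.05% of all protein-coding genes, a share that the interval holds. Among genes with any peak the order turned, with 13.3% of the transcription factor genes against 29.2% of protein-coding genes. The distance between the shares of transcription factor genes and all protein-coding genes depended on the peaks admitted. They were 2.86% and 0.735% at a fold of at least 3.5, and 7.76% and 4.01% among peaks with a mean q-value up to 0.05. With a width of at least 1000 bp they were 7.76% and 4.12%, and with protein-coding genes only 12.7% and 7.23%. With reference gene positions they were 5.31% and 4.69%, and under 5000 bp the order turned, at 4.90% and 5.54%. Their 25 peaks were wide, with a median of 4156 bp and a median fold of 3.38. Of the 22 genes, 15 had a free start between peaks (68.2%, 47.3 to 83.6%), beside 33.6% of the 1325 protein-coding genes with an upstream peak. Klf14 alone had no other peak (4.55%), beside 41.9% of those 1325 genes. These shares are linked, here and for the lists below, because a gene with no other peak cannot have a free start between peaks. Families in which no gene had an upstream peak of this kind included Hox, Pax, Tbx and Stat, of 39, 9, 13 and 7 genes. The upper limits of their intervals were 8.97%, 29.9%, 22.8% and 35.4%. All of these lay above the background of 6.05%, so the absence was not distinguished from it.

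The strongest of these peaks lay before Dlx3, a homeobox factor of hair, tooth and bone, with 596 bp at 4112 bp and a fold of 3.90. Foxn4, a forkhead factor of the retina, had 5901 bp at 1598 bp (fold 3.71). Alx4, a homeobox factor of limb and skull, had 4241 bp at 402 bp (fold 3.59). Foxi3, a forkhead factor of ectodermal organs, had 4156 bp at 1013 bp (fold 3.58), and a peak of 9340 bp began 639 bp after the start and ran past the gene end. Irx1 had 7610 bp at 993 bp (fold 3.55). Msx1, a homeobox factor of craniofacial mesenchyme, had 5527 bp ending 168 bp before the start (fold 3.47) and a peak of 15848 bp that ran from inside the gene past its end. Nkx2-4 had 8005 bp at 190 bp (fold 3.48). The exception without another peak, Klf14, had 834 bp at 1488 bp, with a fold of 2.96 and a mean q-value of 0.0860. Nkx3-2, a homeobox factor that promotes chondrogenesis and was chosen after its value was seen, had 1814 bp at 4720 bp (fold 3.19) and 1 further peak.

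Genes of signalling families were marked by any peak at 46.4%. Of 179 genes, 28 (15.6%, 11.05 to 21.7%) had a peak of this kind, beside the background of 6.05%. Of the signalling genes with any peak, 33.7% had one of this kind, beside 29.2% of protein-coding genes with any peak. Among the 28 were 5 of 19 Wnt ligands, 5 of 22 Fgf ligands and 6 of 22 Eph receptors and ephrins. Of 14 Bmp genes 1 was included, and of 6 Tgfb, 8 Smad, 9 Notch and 4 Fgfr genes none, nor any of the 7 genes of Lrp4/5/6, Lef1 and Tcf7. The intervals of these counts all held 6.05%, and no Tgfb or Smad gene had a peak of any class. The 30 peaks of the 28 genes were narrower, with a median width of 1431 bp and a median fold of 3.17. A mean q-value of 0.05 was reached by 60.0% of them, beside 60.8% of all peaks. Of the 28 genes, 16 had a free start between peaks (57.1%, beside 33.6% of protein-coding genes with an upstream peak) and 6 had no other peak (21.4%, beside 41.9%).

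Among the ligands, Sema5b, a guidance cue, had the highest fold, 3.72, over 8247 bp ending 849 bp before the start. Fgf4 had 2 peaks, of which the one at 2241 bp had a fold of 3.66, and its neighbour Fgf3 had 5335 bp at 423 bp (fold 3.44). Fgf5 had 1411 bp at 826 bp (fold 3.44). Bmp8b had 9043 bp at 1615 bp (fold 3.398), and Gdf7 had 3093 bp at 1021 bp (fold 3.41). Wnt8b had 2110 bp at 345 bp (fold 3.35), and Wnt3, the one signalling gene on this list whose start was covered by a further peak, had 6437 bp at 1554 bp (fold 3.36). Epha4, an Eph receptor, had 5917 bp at 1554 bp (fold 3.49).

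Of 24 chondrocyte genes 1 had a peak of this kind (4.17%, beside 6.05%). It was Ihh, the hedgehog ligand of prehypertrophic chondrocytes, which had 6798 bp of mark ending 590 bp before its start, with a pileup of 12.5, a fold of 3.48 and a mean q-value of 0.00914. A peak of 3418 bp lay inside Ihh (fold 3.58) and one of 19363 bp downstream of it (fold 3.55). The hedgehog receptor gene Ptch1 had only 1 peak, of 3190 bp at 4764 bp, with a fold of 3.05 and a mean q-value of 0.0714, and that peak covered the 5′ end of the RefSeq span of the gene. Gdf5, a factor of joint formation, had 1294 bp at 3883 bp (fold 3.15), and Gdf6 had 2 upstream peaks at 919 and 4276 bp (fold 3.07 and 3.30). Gdf5 and Gdf6 were chosen after their values were seen. None of the 9 genes on the ChIP-PCR list of the study was a member. Lef1, the transcription factor of Wnt signalling, had a peak of 8696 bp ending 621 bp before its start (fold 3.44), but the same peak also lay downstream of a gene record without a symbol, which placed it among the mixtures. The upstream peak of Cdkn2a, a cell-cycle inhibitor, measured 20667 bp and was over the length limit.

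A mean q-value of at most 0.05 was reached upstream of 17 of the 22 signalling genes with another peak (77.3%) and of 1 of the 6 without (16.7%), by the best peak of each gene. Counted by peak, the shares over all genes were 67.6% where another peak left the start uncovered and 58.3% where there was none, and the group without held only 6 signalling genes. Ephb2 had 510 bp at 2416 bp (fold 3.17), Lefty1, an inhibitor of Nodal, 800 bp at 291 bp (fold 3.07), and Robo2, a Slit receptor, 1267 bp at 1910 bp (fold 3.06). Ephb6 and Sema4f had folds of 2.96 and 2.94. Only Ephb2 of these 6 genes, Ptch1 included, had a mean q-value under 0.05, at 0.0348.

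Of 24 genes of Polycomb proteins, 4 had a peak of this kind (16.7%, 6.68 to 35.9%, beside 6.05% of protein-coding genes), and 8 had any peak (33.3%). Among them, Cbx2 and Cbx8, which encode readers of H3K27me3, are neighbours on chromosome 11 and were joined to the same 2 further peaks. Cbx8 had 6405 bp at 4719 bp with a fold of 4.12 and 1786 bp at 1232 bp with a fold of 3.26. Cbx2 had 3619 bp at 1771 bp (fold 3.37). Pcgf3, a subunit of Polycomb repressive complex 1, had 2 short peaks at 2201 and 4221 bp (fold 3.36 and 3.07) and no other.

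Among the lists examined, potassium channel genes had the highest share. Of 92 genes, 25 (27.2%, 19.1 to 37.0%, beside 6.05%) had an upstream peak, which was 41.0% of the channel genes with any peak, and 20 of these 25 had a free start between peaks (80%, beside 33.6% of all protein-coding genes with an upstream peak). Kcnk10, a leak channel, had peaks at 264 and 3205 bp (fold 3.55 and 3.32). Kcnj2, an inward rectifier of muscle, had 1609 bp at 3457 bp (fold 3.46). Solute carriers were at 30 of 337 genes (8.90%) and keratins with their associated proteins at 15 of 105 (14.3%), again beside 6.05%. Among genes with any peak these shares were 33.0% and 29.4%, beside 29.2%. The keratin peaks were low, with a median fold of 3.05. The channels named were chosen after their values were seen.

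Zinc finger and housekeeping genes with an upstream peak mostly had no other. Of 394 Zfp genes, 31 (7.87%, 5.60 to 10.95%) had an upstream peak, and 24 of the 31 carried no other (77.4%, 60.2 to 88.6%, beside 41.9% of all protein-coding genes with an upstream peak). Their peaks lay at a median of 3146.5 bp, beside 2101.5 bp over all peak-gene pairs. The interval of 5.60 to 10.95% and that of the housekeeping genes below both held the background of 6.05%. Of 273 ribosomal, proteasome and respiratory chain genes, 12 (4.40%, 2.53 to 7.52%) had an upstream peak, and all 12 had no other peak. Their 14 peaks lay between 1446 and 4745 bp from the start, none within 1 kb, beside 26.7% of all peak-gene pairs. Mitochondrial ribosomal genes made up 7 of the 12. Mrps22 had 2 of the 14 peaks, 322 bp at 1904 bp (fold 2.99) and 8183 bp at 3586 bp (fold 3.16). Rps3, a protein of the small ribosomal subunit, had 1005 bp at 3401 bp (fold 3.12). Chemosensory receptors were at the low end, with 23 of 1497 genes (1.54%), all of them odorant receptors, and 4.34% had any peak. Among genes with any peak, those with an upstream peak were 35.4% of chemosensory receptors, 44.9% of Zfp genes and 38.7% of housekeeping genes, beside 29.2% of protein-coding genes. These shares rest on 65, 69 and 31 genes with any peak, and no interval was computed for them. Mrps22 and Rps3 were chosen after their values were seen.

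**Figure D5:**
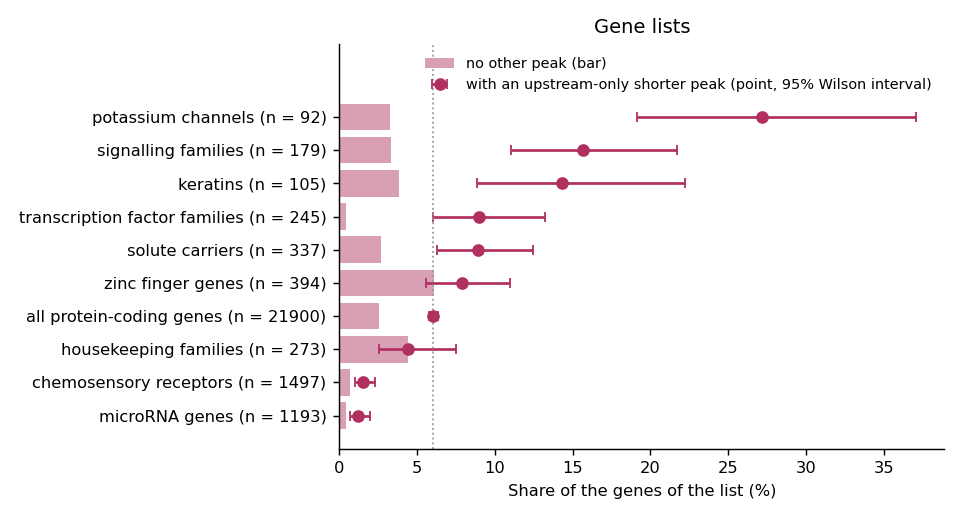
Share (%) of the genes of each list with an upstream-only shorter peak (points, 95% Wilson interval) and share with no other peak (bars). The dotted line is the share of all protein-coding genes, 6.05%. Potassium channels (27.2%) stand highest and microRNA genes (1.17%) lowest among the lists drawn, which leave out the short lists, and for housekeeping genes the bar reaches the point (4.40%).

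Of 1193 microRNA genes, 14 (1.17%) lay behind 6 such peaks, and they included members of paralogous clusters on different chromosomes. The mature sequences are given because the microRNAs of these clusters share seeds, the bases 2 to 8 that pair with targets, which are in capitals. Sequences are from RefSeq, 5′ to 3′, grouped by seed.
miR-17-5p: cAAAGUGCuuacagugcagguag
miR-106a-5p: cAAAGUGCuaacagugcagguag
miR-20b-5p: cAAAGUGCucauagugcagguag
miR-18a-5p: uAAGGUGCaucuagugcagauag
miR-18b-5p: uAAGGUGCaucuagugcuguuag
miR-19a-3p: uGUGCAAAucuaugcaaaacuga
miR-19b-3p: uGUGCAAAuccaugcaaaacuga
miR-92a-3p: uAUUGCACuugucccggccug
miR-363-3p: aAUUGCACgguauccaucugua
miR-34b-3p: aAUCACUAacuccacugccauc
miR-34c-3p: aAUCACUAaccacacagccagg

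Mir17, Mir18 and Mir19a shared 1 peak of 877 bp on chromosome 14, between 4603 and 4932 bp before the hairpins, with a pileup of 12.1, a fold of 3.52 and a mean q-value of 0.0105. The related cluster on the X chromosome, Mir106a, Mir18b, Mir20b, Mir19b-2, Mir92-2 and Mir363, shared a peak of 2738 bp between 2653 and 3453 bp before the hairpins. That peak had a fold of 3.08 and a mean q-value of 0.0607. Both clusters encode microRNAs with the seed of miR-17, that of miR-18 and that of miR-19. Mir34b and Mir34c shared a weak peak of 872 bp (fold 2.86, mean q-value 0.0988), and Mir31 had 1722 bp at 738 bp (fold 3.30). For microRNAs the deposited start is that of the hairpin and not of the primary transcript, so these distances do not place a peak relative to a promoter.

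Most peaks served 1 gene. Of 1754 peaks, 1643 (93.7%) were joined to 1 gene, 101 to 2 genes and 10 to 3 or more, with 7 at most. Genes on both strands flanked 72 peaks (4.10%), of which 33 lay between 2 genes with symbols. The tightest pair with a strong peak was Ttf1, a transcription termination factor of ribosomal genes, and 1700101E01Rik, with 3379 bp at 587 and 1234 bp (fold 3.60). Tmem9 and Igfn1 shared 620 bp (fold 2.98), Crym and Abca14 294 bp (fold 3.09), and A330040F15Rik and Gm4952 1975 bp (fold 3.02). The peak between Cdh2, which encodes N-cadherin, and Gm15328 measured 5313 bp (fold 3.10). Only the peak at Ttf1 among these 5 had a mean q-value under 0.05, at 0.00609.

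The next peak towards the gene lay within 5 kb for 49.5% of the peaks and the next peak away from it for 40.5%, and for 31.1% neither side had one. The next peak towards the gene lay inside it for 556 peaks (31.7%) and covered its start for 157 (8.95%). The X chromosome had the highest share of upstream-only peaks, 25 of its 138 shorter peaks (18.1%, 12.6 to 25.4%), and chromosome 8 the lowest, 67 of 1148 (5.84%). Among shorter peaks joined to a gene these shares were 23.1% and 12.96%, and chromosome 2 was lowest at 12.7%.

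The position of these peaks rested on the deposited gene records. For 1157 pairs a RefSeq start site of the same gene was at hand, and 94.3% of them lay within 1 kb of the deposited start. In 9 pairs a RefSeq start site of that kind lay under the peak itself, at Kcnk10, Atoh7, Thumpd1, Zdhhc22, Rph3a, Tgm7, Gdnf, Amer2 and Rcan2. At Kcnk10 the fold was 3.55 and at Gdnf, a neurotrophic factor, the peak measured 7720 bp. By the spans of the RefSeq gene table, which take in every transcript, 163 of 1533 pairs (10.6%, 9.19 to 12.3%) overlapped their own gene, Robo2 and Igfn1 among them. In 64 of the 1533 pairs (4.17%, 3.28 to 5.30%) the 5′ end of the span lay under the peak, as at Il12rb2, Trnp1, Wnt16 and Ptch1. Counting only the start sites of the promoter windows, of whichever gene, 1 or more lay under 35 of 1723 upstream peaks (2.03%), against 57.3% of peaks that covered a deposited start. Although chosen as outside deposited genes, 12.1% of the 1754 peaks overlapped a protein-coding gene and 13.5% a long noncoding RNA gene of the RefSeq table. The deposited record of Galnt2 spanned 38.8 times the length of the gene in that table, so its upstream peak was not near its RefSeq start.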

How the data were processed

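Data were 1 H3K27me3 ChIP library and 1 input library of mouse rib chondrocytes, with 17237574 and 17004082 tags after filtering and a redundant rate of 0.02 in each. The submitters' processing notes name CASAVA 1.8.4, Bowtie2, MACS2 and mm10. Per the file headers, the authors called broad peaks with MACS 2.1.0.20140616 at a q-value cutoff of 0.05, a fragment length of 294 bp and an effective genome size of 1.87 Gb. The pileup is a coverage signal deposited per peak, the fold enrichment a ratio deposited per peak, and the −log10 q-value was deposited as the mean over the peak. The mean q-value ran up to 0.0991 over all peaks, above the cutoff in the header, and the reason was not tested. The deposited annotation joins peaks to Ensembl genes within 5 kb, and its tool is not given in the sources used here. The authors' p-values were not used. A spreadsheet had turned 7 symbols of these genes into dates.

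Peaks were counted by name with Python 3.11.15, pandas 2.3.3 and scipy 1.17.1, and values of all 19359 peaks were identical in both tables. Symbols were matched to RefSeq genes of GRCm38.p6 (1383 of 1393). Gaps, intervals and class rules were tested on simulated data. Input background was recomputed from pileup and fold enrichment, and a peak stood on the genome-wide input level when it was within 0.02 of 2.67. With 1 library per group no test between groups was made. Members, lists and alternatives were chosen with earlier results of these data known. Named genes were the 5 smallest gaps, 5 widest peaks with a symbol, 5 highest pileups and folds, 5 genes with most peaks, the 5 tightest pairs of genes on both sides, the 3 peaks on each side of the length limit, members on the ChIP-PCR, chondrocyte and Polycomb lists, and up to 10 transcription factor and signalling genes with and without another peak. Promoter and microRNA sequences were copied from RefSeq tables. Some genes within this rule are not reported here. No genome was at hand, so sequences under peaks were not analysed here beyond the promoter windows shown.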

Additional observations from a re-analysis of the deposited data

How the results depend on the processing

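No paired analysis was possible because there was a single library on either side and no value came from a test between groups. Across 7 alternatives, 31 of the recomputed values stayed within the interval of the reported value (counts within 1.5 times) and 38 moved. At mean q-values up to 0.05 there were 1117 peaks and 913 symbols, with medians of 1867 bp for the gap, 1809 bp for width, 11.6 for pileup and 3.28 for fold, and 50.9% of the genes carried another peak. With a fold of at least 3.5 there were 178 peaks and 166 symbols, with medians of 1460.5 bp, 1930.5 bp, 12.8 and 3.61, 25.5% of genes with another peak, 2.86% of transcription factor genes (0.735% of protein-coding genes), and all peaks (100%) under the q-value limit. With a width of at least 1000 bp there were 1119 peaks, with medians of 1753 bp, 2140 bp, 11.2 and 3.20, 49.7% of genes with another peak, and 71.8% under the q-value limit. At these limits on q-value, fold and width the other peak had to pass the same limit, which lowers the share of genes with one. In the full list, a fold of at least 3.5 was reached by 14.8% of the 162 upstream peaks whose gene had a covered start. It was reached by 10.95% of the 849 whose gene had another peak but an uncovered start, and by 8.21% of the 743 whose gene had none. Under 5000 bp, the medians were 1237 bp for width, 11.02 for pileup and 3.15 for fold, with 60.9% under the q-value limit and 4.90% of transcription factor genes (5.54% of protein-coding genes). With protein-coding genes only, the medians were 1418.5 bp for width, 11.2 for pileup and 3.19 for fold, with 66.4% under the q-value limit and 2.21% of peaks at 2 or more genes. With gene positions from the reference table the median gap was 2134 bp, 61.4% were under the q-value limit, 59.3% of genes carried another peak, 5.31% of transcription factor genes (4.69% of protein-coding genes) were joined and 4.05% of peaks had 2 or more genes. Of the 1456 peaks of this last setting, 883 were among the 1754. These filters choose other peaks by construction, and with 1 library per group and a depth near 17237574 tags, regions under the lowest pileup of 9.86 were not detectable upstream of genes.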
